A study of Mus musculus with 9 samples.

Results

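The Dkk and Sfrp genes encode secreted proteins that bind Wnt ligands or their receptors outside the cell. The family described here holds Dkk1, Dkk2, Dkk3, Dkk4, Sfrp1, Sfrp2, Sfrp4, Sfrp5, Frzb and Wif1, that is 10 genes. Every non-control spot whose gene name in the scanner tables was one of these was taken, which gave 12 probes of the 41174 on the array, since Dkk1 and Sfrp1 had 2 probes each. The genes were chosen because several of them stood higher in the re-isolated cells than in satellite cells on these same arrays. Their differences from satellite cells are therefore a description: which member probes passed the threshold of the fit over all probes is stated, but it repeats the choice of the genes and supports nothing. Only the comparison of the lines with each other is a test that the choice did not use.

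Wnt proteins bind Frizzled receptors and the co-receptors Lrp5 and Lrp6, and the signal keeps beta-catenin from being degraded so that it can act with TCF and LEF factors in the nucleus. Dkk proteins bind Lrp5 and Lrp6 and, with Kremen proteins, keep them out of the receptor complex, whereas secreted frizzled-related proteins and Wif1 bind the Wnt ligands themselves. In skeletal muscle, Wnt signals are known to act in the embryonic formation of muscle and in the regeneration of adult muscle, and connective tissue cells are a known source of secreted frizzled-related proteins.

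RNA was measured on 9 single-colour Agilent mouse arrays in 3 groups of 3. Progenitors of the muscle lineage made from the pluripotent stem cell lines iPax3 and iPax7 had been grafted and were re-isolated from the tibialis anterior; the labels call these 6 samples mononucleated cells, with the strain NSG/NSGmdx4cv, an immune-deficient background with and without a dystrophin mutation. The other 3 samples were adult satellite cells, the resident muscle stem cells, from the tibialis anterior of the Pax7-ZsGreen strain, in which a fluorescent reporter marks Pax7-expressing cells. All groups are labelled 3 months-old, and RNA of 1500 cells, taken from 3 mice per line in 3 independent experiments, was amplified before labelling. The labels give neither the gate of the sort, nor how grafted cells were separated from those of the host, nor how many clones a line comprised.

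Re-isolated and satellite cells differed in strain, slide and scan day as well as in cell type, and these cannot be told apart. All 3 iPax3 arrays and iPax7 replicate 1 shared a slide, iPax7 replicates 2 and 3 shared another, and each satellite array had a slide of its own. Between 57.2% and 79.9% of probes were well above background on an array, and no spot was saturated. Satellite replicate 1 stood apart from the other satellite arrays, with a mean correlation with the 6 line arrays of 0.618, against 0.539 for satellite replicate 2 and 0.531 for satellite replicate 3. Its mean correlation with the other satellite arrays was 0.576, lower than with the line arrays. For satellite replicates 2 and 3 the correlation with the other satellite arrays was the higher one, at 0.615 and 0.605. Satellite replicate 1 was also scanned on another day than these. The groups were also described by marker genes, from lists chosen with earlier results of these data known, so this does not test the labels. Of 10 satellite cell markers tested, 10 had a negative difference for iPax3 against satellite cells and 9 for iPax7, and Chrdl2 passed the limma threshold in both. Myf5, the remaining marker of that list, was above background on 1 array and was not tested. The summed linear level of the satellite cell markers was 28.7 to 70.8 on the line arrays and 152 to 244 on the satellite arrays. Pax7 itself lay at 2.89, 3.53 and -0.66 on the satellite arrays. It lay at -0.53 on iPax3 replicate 2, so iPax3 and satellite cells overlapped for this gene. The iPax7 arrays, at -3.90, -3.25 and -3.76, all lay below the satellite arrays.

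Levels are log2 values of the background-subtracted signal after each array was centred on its 75th percentile. A level below 0 therefore means a signal dimmer than that percentile, and levels of different probes are not comparable. On all 9 arrays, 4 of the 12 probes exceeded the background flag, namely both Dkk1 probes, the upstream Sfrp1 probe and the Sfrp4 probe. In all, 10 probes of 8 genes passed the filter of at least 3 arrays above background, and the 2 probes of Sfrp5 and Wif1 did not. Passing could depend on a single group, so counts over the 10 probes do not stand for the family.

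The 5 probes with the widest gaps between a line and satellite cells read the stretches below, shown so that each value can be tied to the piece of transcript it reports. Each line gives the first 30 of 60 probe bases, 5′ to 3′ in the sense of the transcript, all in lower case because no motif is marked. Whether a stretch lies in coding sequence or an untranslated region was not determined, since no annotation of the build mm8, which the scanner tables use, was analysed here.

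Dkk2, chr3:132116699-132116758, plus strand: tcagagtgatgatgtcatcagaagtttata

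Sfrp1 upstream, chr8:24913185-24913244, plus strand: cggaatcagtatagcgtggaaggagacagt

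Sfrp1 downstream, chr8:24913873-24913932, plus strand: gtgcattagtaattagaaatagtctaacct

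Sfrp2, chr3:83859869-83859928, plus strand: tcggcatctaagtcttcaaacatttcgttg

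Sfrp4, chr13:19640084-19640143, plus strand: cacagttgtctgtgtgcatactgtgtaaga

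Among the Dkk genes, Dkk2 was the one that separated both lines from satellite cells. Dkk2, which can inhibit or, in some settings, activate Wnt signalling through Lrp6, lay at 2.67, 1.56 and 3.30 on the iPax3 arrays. On the iPax7 arrays its level was 3.82, 3.06 and 3.18, and on the satellite arrays -8.88, -6.22 and -6.84. All 6 line arrays were well above background and none of the 3 satellite arrays was, so the groups did not overlap and the satellite level is only a bound. The group means were 2.51 ± 0.88 (SD, n = 3) in iPax3, 3.35 ± 0.41 (SD, n = 3) in iPax7 and -7.31 ± 1.39 (SD, n = 3) in satellite cells. With each satellite array raised to the lowest signal well above background on it, Dkk2 was at least 207-fold higher in iPax3 cells and at least 370-fold higher in iPax7 cells. The measured log2 differences were 9.82 ± 0.90 (SE of the fit) and 10.67 ± 0.90. With another background correction (normexp) they were 4.98 and 5.76, which is below those bounds, so the bounds hold for the main processing alone. Without satellite replicate 1, the differences were 9.04 and 9.88. These are bulk samples, in which fewer cells of a type and less RNA per cell cannot be told apart.

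**Figure D1:**
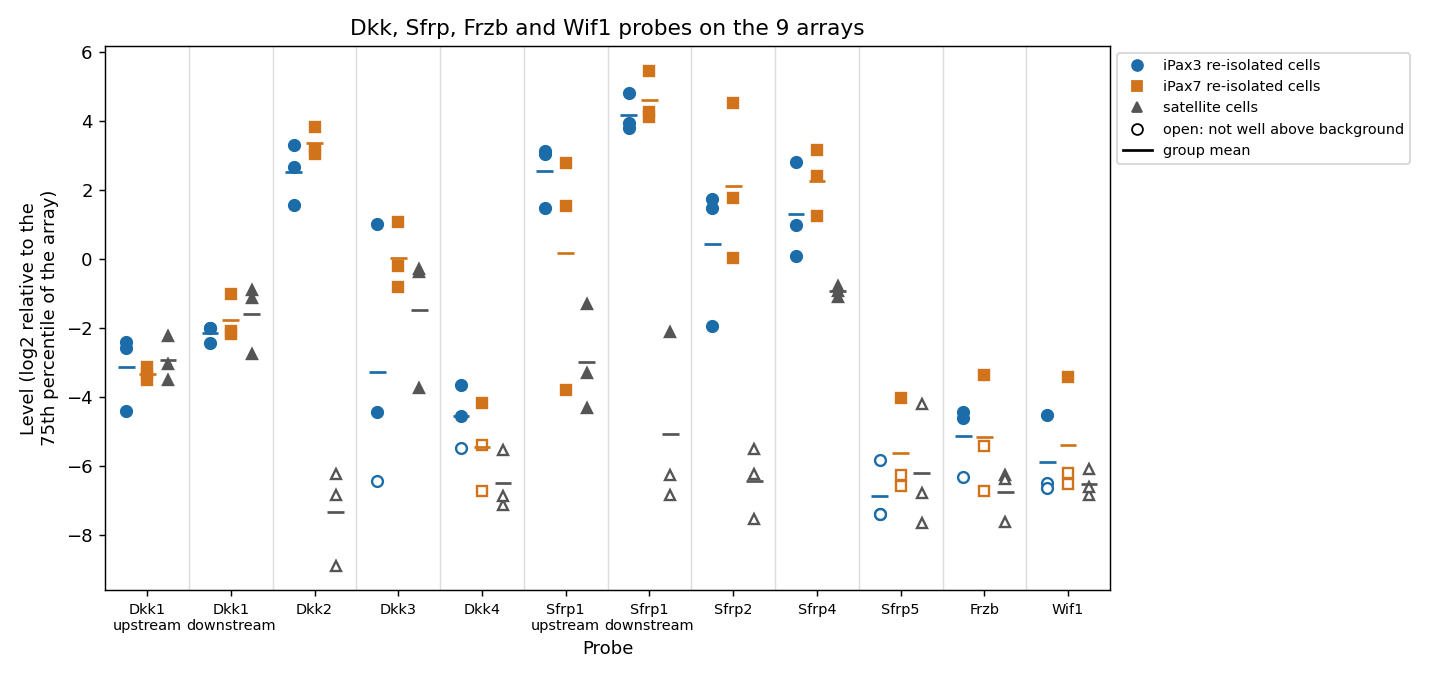
Level of each of the 12 probes on the 9 arrays (y axis, log2, with 0 at the array's 75th percentile), by probe (x axis), with a bar at each group mean. For Dkk2, Sfrp2 and the downstream Sfrp1 probe all 6 line arrays lie above all 3 satellite arrays, and open symbols mark arrays on which the probe was not well above background.

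Dkk1, the Dkk protein best known as a Wnt antagonist, did not separate the groups on either of its probes, which start 895 bases apart. The upstream probe lay at -2.57, -2.39 and -4.40 on the iPax3 arrays, at -3.51, -3.32 and -3.11 on the iPax7 arrays and at -3.03, -2.23 and -3.50 on the satellite arrays. The downstream probe lay at -2.00, -2.00 and -2.42 in iPax3, at -1.02, -2.09 and -2.18 in iPax7 and at -2.75, -1.14 and -0.91 in satellite cells. All 3 groups overlapped on both probes, although every array was well above background. The differences from satellite cells were -0.20 ± 0.80 and -0.39 ± 0.80 (SE) on the upstream probe, for iPax3 and iPax7, and -0.54 ± 0.78 and -0.17 ± 0.78 on the downstream probe. The sign of the iPax3 difference on the upstream probe and of the iPax7 difference on the downstream probe turned when the percentile was taken over probes above background on all arrays (0.18 and 0.064).

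Dkk3, a divergent member whose effect on Wnt signalling depends on the cell, varied widely within groups. Its level was -6.44, -4.44 and 1.03 on the iPax3 arrays, 1.09, -0.80 and -0.21 on the iPax7 arrays and -3.74, -0.38 and -0.28 on the satellite arrays. It was well above background on every array except iPax3 replicate 1. The iPax3 arrays thus held both the lowest value of all and one close to the highest, with a group mean of -3.28 ± 3.87 (SD, n = 3). Its difference from satellite cells was -1.82 ± 1.81 (SE) for iPax3 and 1.49 ± 1.81 for iPax7, with opposite signs.

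Dkk4, another Wnt antagonist and a known target of the pathway, was near background throughout. It lay at -4.54, -3.63 and -5.47 on the iPax3 arrays, at -5.40, -6.72 and -4.17 on the iPax7 arrays and at -7.11, -5.52 and -6.87 on the satellite arrays. Only iPax3 replicates 1 and 2 and iPax7 replicate 3 were well above background. With the satellite arrays raised as for Dkk2, it was 1.55-fold higher in iPax3, which is no bound because iPax3 replicate 3 was not well above background. The order of the remaining values, including that of iPax3 replicate 3 and satellite replicate 2, is among levels not well above background and is not read. With normexp the sign of both differences turned, to -0.16 for iPax3 and -0.15 for iPax7.

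Of the secreted frizzled-related proteins, Sfrp1, Sfrp2 and Sfrp4 had positive differences in both lines. Sfrp1, which binds Wnt ligands through a domain like that of the Frizzled receptors, was read by 2 probes that start 688 bases apart and that disagreed on a line array and in the satellite cells. The downstream probe lay at 3.94, 3.81 and 4.81 on the iPax3 arrays, at 5.46, 4.26 and 4.12 on the iPax7 arrays and at -2.11, -6.24 and -6.82 on the satellite arrays. Of the satellite arrays only replicate 1 was well above background, and all line arrays lay above it. The log2 differences were 9.24 ± 1.21 (SE) for iPax3 and 9.67 ± 1.21 for iPax7, and 5.999 and 6.38 with normexp. On satellite replicates 2 and 3 the probe was not well above background, so the satellite mean rests in part on unmeasured levels and the differences are not exact.

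The upstream Sfrp1 probe was well above background on all 9 arrays and gave another order. Its level was 3.06, 1.47 and 3.12 on the iPax3 arrays, -3.80, 2.79 and 1.53 on the iPax7 arrays and -4.31, -3.30 and -1.29 on the satellite arrays. Satellite replicate 1, the brightest satellite array on the downstream probe, was the dimmest on the upstream probe. The iPax7 replicate 1 array was the brightest of the 6 line arrays on the downstream probe and the dimmest on the upstream probe, where it lay within the range of the satellite arrays. The differences on the upstream probe were 5.52 ± 1.63 (SE) for iPax3, without overlap, and 3.14 ± 1.63 for iPax7, with overlap. Without iPax7 replicate 1, the latter was 5.13. Across the 9 arrays the probes had a Pearson r of 0.57, and after the group means were removed r was -0.50. The mean of both probes gave 7.38 ± 0.88 for iPax3 and 6.41 ± 0.88 for iPax7, positive like each probe alone.

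**Figure D2:**
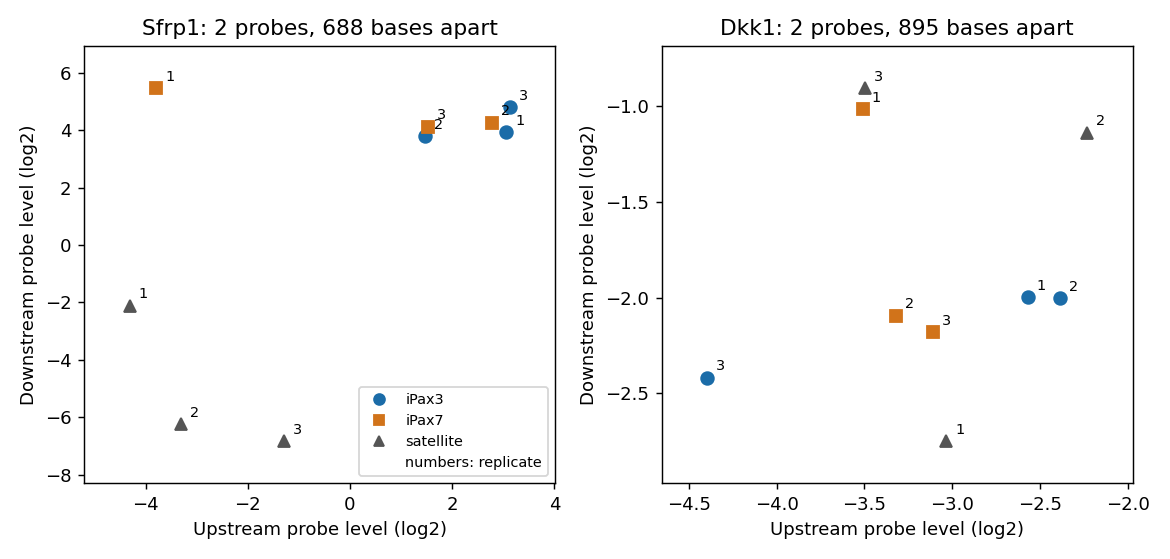
Downstream against upstream probe level (both axes log2, with 0 at the array's 75th percentile) for Sfrp1, left, and Dkk1, right, with 1 point per array and its replicate number. For Sfrp1, iPax7 replicate 1 lies at the upper left, at 5.46 on the downstream and -3.80 on the upstream probe, away from the other 5 line arrays.

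Sfrp2, a Wnt-binding protein made by many mesenchymal cells, lay at 1.49, -1.94 and 1.73 on the iPax3 arrays, at 4.52, 1.77 and 0.02 on the iPax7 arrays and at -7.52, -6.24 and -5.51 on the satellite arrays. Every line array was well above background and no satellite array was. The lines did not overlap with the satellite arrays, although their own values were wide, with group means of 0.43 ± 2.06 (SD, n = 3) in iPax3, 2.11 ± 2.27 (SD, n = 3) in iPax7 and -6.42 ± 1.02 (SD, n = 3) in satellite cells. Sfrp2 was at least 48.7-fold higher in iPax3 cells and at least 156-fold higher in iPax7 cells. The measured log2 differences were 6.85 ± 1.38 (SE) and 8.53 ± 1.38, and with normexp 3.04 and 4.50, again below the bounds, which hold for the main processing alone. The call for iPax7 described further on was lost with normexp and with the authors' deposited table, where the difference was 5.90.

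Sfrp4, a frizzled-related protein with roles in bone and connective tissue, was measured well above background in satellite cells as well. Its level was 0.98, 0.09 and 2.81 on the iPax3 arrays, 3.16, 2.39 and 1.25 on the iPax7 arrays and -1.09, -0.79 and -0.91 on the satellite arrays. Both lines lay wholly above the satellite arrays, whose mean was -0.93 ± 0.15 (SD, n = 3), against 1.29 ± 1.39 (SD, n = 3) in iPax3 and 2.27 ± 0.97 (SD, n = 3) in iPax7. The log2 differences were 2.22 ± 0.90 (SE) for iPax3 and 3.20 ± 0.90 for iPax7. Neither passed the threshold over all probes. The line arrays varied more than the satellite arrays, and this spread enters the error of both differences.

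Frzb, also known as Sfrp3, stayed near background. It lay at -4.43, -4.61 and -6.30 on the iPax3 arrays, at -3.36, -6.71 and -5.41 on the iPax7 arrays and at -7.61, -6.25 and -6.38 on the satellite arrays, with only iPax3 replicates 1 and 2 and iPax7 replicate 1 well above background. Both lines overlapped with the satellite arrays. With the satellite arrays raised as for Dkk2, Frzb was 1.05-fold higher in iPax3 and 1.01-fold higher in iPax7. These values are no bounds, since the line means include arrays not well above background. With normexp both differences turned sign, to -0.24 and -0.049. Sfrp5, a close relative of Sfrp1, was well above background on iPax7 replicate 3 alone, and Wif1, which binds Wnt ligands through a domain of its own, on iPax3 replicate 2 and iPax7 replicate 3. For both, no difference is given.

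In the fit over 32967 probes, 2 member probes passed the threshold for iPax3 against satellite cells (Dkk2 and downstream Sfrp1), where 0.385% of all probes passed. For iPax7 against satellite cells 3 passed (these and Sfrp2), where 0.434% of all probes passed. Because the family was chosen on these contrasts, nothing is read from those counts and shares. Dkk2 and Sfrp2, and likewise Dkk4 and Frzb, passed the filter through the line arrays alone. The counts without overlap and the medians that follow include these probes. Of the 10 member probes, 6 lay above the satellite arrays without overlap in iPax3, Dkk4 among them with levels mostly not above background, where 9.43% of all probes did so. In iPax7 4 did, where 7.85% of all probes did. The median difference over the member probes was 2.09 for iPax3 and 2.36 for iPax7, beside -0.03 and -0.06 over all probes. The former lies between Dkk4 (1.95) and Sfrp4 (2.22), the latter between Frzb (1.58) and the upstream Sfrp1 probe (3.14). Dkk4 and Frzb were not well above background on any satellite array, so nothing is read from these medians either. For both lines combined, 3 passed, where 0.758% of all probes did, and 4 did not overlap, where 4.19% did. The comparisons with satellite cells share the satellite arrays. The downstream Sfrp1 call in iPax3 was lost without any of the 3 iPax3 arrays or without satellite replicate 2 or 3, at 8.36 to 9.43. In iPax7, it was lost without any of the 3 iPax7 arrays or without satellite replicate 2, at 9.08 to 9.92. The Sfrp2 call in iPax7 held without iPax3 replicate 2 and was lost without any other array, at 7.32 to 9.57. With slide as a random block, the correlation within a slide was estimated at 0.394, and the downstream Sfrp1 call in iPax3 and the Sfrp2 call in iPax7 were lost, at 8.95 and 8.81.

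**Figure D3:**
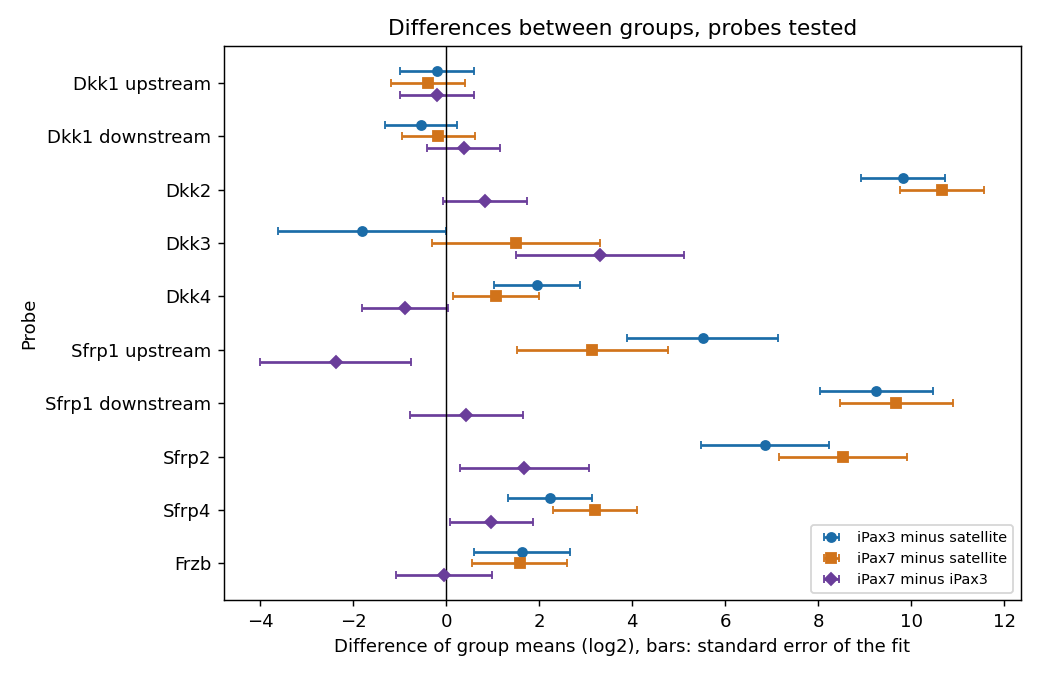
Difference of group means (x axis, log2) for the 10 probes tested, with bars for the standard error of the fit, for iPax3 minus satellite, iPax7 minus satellite and iPax7 minus iPax3. Dkk2 lies at 9.82 and 10.67 against satellite cells, and the differences between the lines lie between -2.38 and 3.31.

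Between the lines, no member differed by limma. For iPax7 against iPax3 cells, 0 of the 10 member probes and 0% of all probes had an adjusted p of 0.05 or less. At an unadjusted p under 0.05, the count was 0 of 10 member probes, beside 4.28% of all probes. No member probe separated the lines without overlap, where 9.39% of all probes did. The Dkk2 difference was 0.84 ± 0.90 (SE) and that of the downstream Sfrp1 probe 0.43 ± 1.21, both with a limma adjusted p of 1. For Sfrp2 the difference was 1.68 ± 1.38, for Sfrp4 0.97 ± 0.90 and for Dkk3 3.31 ± 1.81, each with a limma adjusted p of 1. The remaining probes had differences from -2.38 ± 1.63 on the upstream Sfrp1 probe to 0.38 ± 0.78 on the downstream Dkk1 probe, and standard errors this large leave room for differences of several fold in either direction.

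Part of the order of the lines rested on a single array. Without iPax7 replicate 1, the Sfrp2 difference between the lines was 0.47 ± 1.33 (SE), the upstream Sfrp1 difference -0.39 ± 1.13 and the Frzb difference -0.95 ± 0.97. Within the slide that held both lines, which compares iPax7 replicate 1 with the 3 iPax3 arrays, Sfrp2 differed by 4.10 ± 1.83 and the upstream Sfrp1 probe by -6.35 ± 1.103, where the iPax7 side is a single array, assumed to vary like the iPax3 arrays. In that slide Dkk2 differed by 1.31 ± 1.07, the downstream Sfrp1 probe by 1.27 ± 0.92 and Sfrp4 by 1.87 ± 1.37.

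The members that stood high in the lines shared their extremes among the line arrays. On the probes of Dkk2, Sfrp2 and Sfrp4 and on the downstream Sfrp1 probe, iPax7 replicate 1 was the highest and iPax3 replicate 2 the lowest of the 6 line arrays. These arrays are also the extremes of the line arrays in the share of probes above background, with 57.2% on iPax7 replicate 1 and 77.7% on iPax3 replicate 2. In the authors' deposited table the order was the same only in part. Dkk2, the downstream Sfrp1 probe and Sfrp4 were highest on iPax7 replicate 2, at 12.40, 13.62 and 11.26. Sfrp2 was still highest on iPax7 replicate 1, at 12.58. Of the line arrays, iPax3 replicate 2 was still the lowest for Dkk2 (10.87), Sfrp2 (6.87) and Sfrp4 (8.59), but not for the downstream Sfrp1 probe. Over the 9 arrays, Sfrp2 and Sfrp4 had a Pearson r of 0.949, which was 0.819 after the group means were removed. Dkk2 and the downstream Sfrp1 probe had an r of 0.922, which was -0.577 after the group means were removed. All such correlations share the same arrays and scaling.

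By the same measure over 9 arrays, among 18920 genes above background on at least 6 of them, the genes most like Dkk2 were Aspn (r = 0.996), Ifi207 (0.995) and Fst (0.991). Aspn encodes the matrix protein asporin and Fst the activin and myostatin antagonist follistatin. The genes most like the downstream Sfrp1 probe were Ifi205 (r = 0.996), Mmp14 (0.994), a membrane-bound matrix metalloproteinase, and Col1a1 (0.994), a chain of type I collagen. For Sfrp2 they were Ugdh (r = 0.981), Ebf2 (0.978) and Rab28 (0.976), and for Sfrp4 Abhd1 (0.977), Alg12 (0.975) and Creld1 (0.959). For Dkk3, r did not exceed 0.931, with Triobp. The gene most like the downstream Dkk1 probe was a transcript without a symbol in the file, and Zbtb7c had an r of 0.981. These likenesses are descriptions over 9 arrays that fall into groups, and say nothing of shared control.

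Markers of other cell types moved with the members. Of 12 markers of fibro-adipogenic progenitors and fibroblasts, the connective tissue cells of muscle, 12 had a positive difference in each line, and 4 passed the limma threshold in iPax3 (Col1a1, Col1a2, Dcn and Pdgfra) and 5 in iPax7 (these and Ly6a). The median difference of that list was 4.69 in iPax3 and 5.45 in iPax7, beside -0.03 and -0.06 over all probes. Its summed linear level was 635, 442 and 856 on the iPax3 arrays, 1130, 612 and 628 on the iPax7 arrays and 26.5, 21.3 and 10.03 on the satellite arrays. The highest and the lowest of the line arrays were again iPax7 replicate 1 and iPax3 replicate 2. Between 11 and 12 of the 12 markers were well above background on every array, satellite arrays included. The part of this list in the levels of Dkk2, Sfrp1, Sfrp2 and Sfrp4 was not tested.

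The remaining lists covered other cell types of muscle. Of the tenocyte, pericyte, endothelial, leukocyte, Schwann cell and muscle fibre markers, 0 passed the limma threshold in either line against satellite cells. Not passing does not show that levels were equal. The summed level of the pericyte and smooth muscle markers was 41.7 to 97.6 on the line arrays and 37.5 to 47.5 on the satellite arrays. Such a sum is carried by its brightest probes, here Acta2, at 6.46 on iPax7 replicate 1. In each line 3 markers of that list had a positive and 4 a negative difference. Myh11 was lower without overlap in both, by -3.39 ± 0.69 (SE) in iPax3 and -2.51 ± 0.69 in iPax7. The summed endothelial level was 1.69 to 54.6 on the line arrays and 4.95 to 15.3 on the satellite arrays, and the leukocyte level 3.03 to 63.6 and 5.05 to 11.6. Both were highest on iPax7 replicate 1, the array with the highest Sfrp2 level, and their part in that level was not tested. The leukocyte sum there was carried by Cd52, at 5.71. Cd52 was higher without overlap in both lines, by 5.93 ± 1.40 (SE) in iPax3 and 5.95 ± 1.40 in iPax7. Of the leukocyte markers, 5 had a positive and 2 a negative difference in iPax3, and 4 and 3 in iPax7.

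The rest of the Wnt pathway was read from a list of 72 genes, of which 69 were tested. By limma 0 of them passed in any comparison, which does not show that their levels were equal. Their median difference was -0.29 for iPax3 and -0.37 for iPax7 against satellite cells. Of 18 Wnt ligands tested, 6 had a positive and 12 a negative difference in each line. Of 15 receptors and co-receptors, 4 were positive and 11 negative in each line. Among the other extracellular modulators, 8 of 14 were positive in iPax3 and 5 of 14 in iPax7.

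Lrp5, a co-receptor that Dkk proteins bind, was well above background on all 9 arrays. It lay between 4.70 and 5.50 on the line arrays and at 5.74, 6.96 and 7.33 on the satellite arrays, without overlap. Its differences were -1.68 ± 0.73 (SE, adjusted p = 0.405 by limma) for iPax3 and -1.61 ± 0.73 (adjusted p = 0.433 by limma) for iPax7. The other co-receptor, Lrp6, had differences of -1.39 ± 2.06 and -0.62 ± 2.06, with line levels from -7.59 to 0.99 on both sides of the satellite levels. Kremen1 and Kremen2, the receptors that act with Dkk proteins, had differences of -1.11 ± 0.79 and -0.45 ± 0.71 in iPax3 and of -0.74 ± 0.79 and -0.34 ± 0.71 in iPax7.

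Downstream of the receptors, Ctnnb1, which encodes beta-catenin, lay at 2.39 to 4.89 on the line arrays and at 2.72, -0.12 and 0.21 on the satellite arrays. Its differences were 2.04 ± 1.02 (SE, adjusted p = 0.462 by limma) in iPax3 and 2.62 ± 1.02 (adjusted p = 0.375 by limma) in iPax7. Lef1, a nuclear partner of beta-catenin, differed by 0.00 ± 1.23 and -0.37 ± 1.23. Axin2, a commonly used target of Wnt signalling through beta-catenin, was not well above background on any of the 9 arrays and was not tested, which is a limit of its probe on these arrays and not a measure of the pathway.

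**Figure D4:**
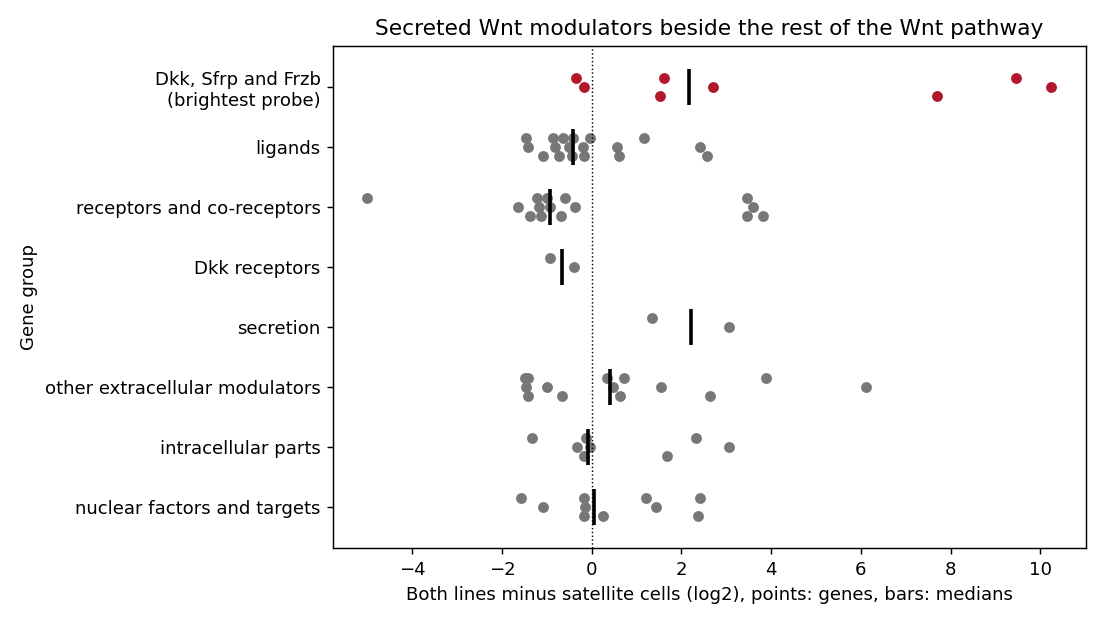
Difference of both lines from satellite cells (x axis, log2) for the 8 tested Dkk, Sfrp and Frzb genes, by their brightest probe, and for the 69 tested genes of the Wnt pathway list, by class, with 1 point per gene and a bar at the median. The median of the 8 genes is 2.16, that of the ligands -0.42 and that of the receptors and co-receptors -0.92. The family was chosen on this contrast, so its higher median repeats that choice. It lies between Frzb (1.61), not well above background on any satellite array, and Sfrp4 (2.71).

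Promoters were read from RefSeq sequence of the build GRCm38.p6, in which 6 of the 10 members had an entry (Dkk1, Dkk2, Frzb, Sfrp2, Sfrp5 and Wif1). The 250 bases before each start site were searched on both strands for the TCF/LEF core CTTTGA or CTTTGT and for the TATA box TATAAA, and no match of one motif overlapped a match of another. A TCF/LEF core was present in 3 of the 6, namely Dkk1 with 3 matches and Dkk2 and Frzb with 1 each, where 27.6% of 32841 promoters held at least 1. The letters TATAAA were matched in Dkk1, Dkk2 and Wif1, where 12.4% of promoters held a match. These matches lay 54, 32 and 232 bases before the start site, in that order. They could be on either strand, and their position was not used to class them as working TATA boxes. The EBF core CCCNNGGG, searched because Ebf2 was among the genes most like Sfrp2, was present in Frzb and Sfrp5, where 11.8% of promoters held it, and had no match in the Sfrp2 window. The Dkk2 promoter is shown because Dkk2 was called in both lines, with the TCF/LEF match in capitals 80 bases before the start site. The 224 bases printed close with the TATAAA match and stop at the start of the gene in another annotation. That start lies 26 bases before the start site of the promoter sequences, from which the 80 bases are counted. Which start is used in these cells was not determined.

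Dkk2 promoter, chr3:132085042-132085265, plus strand: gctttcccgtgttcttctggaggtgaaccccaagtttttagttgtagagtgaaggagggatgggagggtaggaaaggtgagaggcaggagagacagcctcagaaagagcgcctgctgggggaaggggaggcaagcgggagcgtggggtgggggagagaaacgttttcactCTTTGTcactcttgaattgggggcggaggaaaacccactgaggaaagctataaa

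A match of these letters is a description of the sequence and not evidence of binding, and the arrays measured RNA levels only.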

How the data were processed

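The 10 genes and all gene lists were chosen with earlier results of these data known. The deposited scanner tables hold intensity values that, per the file headers, came from Feature Extraction 10.5.1.1 by Agilent after detrending and background subtraction. Processed signals were raised to the smallest positive signal of the array, taken as log2 and centred on the 75th percentile of its non-control spots. Outlier spots were left out and spots of a probe averaged. A spot is well above background at 13 SDs of the background by the software's flag. Of 41174 probes, 32967 were kept: above background on at least 3 arrays, with no more than 2 arrays missing in all and 2 or more values per group. limma 3.58.1 in R 4.3.3 fitted a mean per group over 9 arrays (6 residual, 3.18 prior degrees of freedom), with Benjamini-Hochberg adjusted p at 0.05. The fit was tested on simulated data. Against satellite cells it recovered 0% to 2% of simulated log2 differences of 2, and 8% to 22% of those of 4. A gene that did not pass may therefore still differ. The labels name 3 independent experiments but no animals per array, so p-values reflect the spread between arrays, whose number limits precision. Levels of at least N-fold set the brighter group's mean against the dimmer group's, each dim array raised to its lowest signal well above background. That signal is taken over all probes, and a signal not well above background can exceed it. Such a value is a bound only for this processing and where every array of the brighter group is well above background. The deposited value table holds the authors' log2 values, for which the submitters' processing notes name limma; how its columns were adjusted to each other is unknown, so it served as an alternative. Named genes were the 10 members, 7 pathway genes (Lrp5, Lrp6, Kremen1, Kremen2, Axin2, Lef1 and Ctnnb1), any pathway gene that passed, and the 3 genes most like each member above background on at least 6 arrays. Genes of the pathway and marker lists are represented by their brightest probe.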

Additional observations from a re-analysis of the deposited data

How the results depend on the processing

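Over the other settings, the Dkk2 difference ranged from 4.98 to 10.20 in iPax3 and from 5.76 to 10.90 in iPax7, which describes these arrays and supports nothing beyond the choice of the gene. The downstream Sfrp1 probe was below the threshold in 4 of 11 settings in iPax3 and 1 of 11 in iPax7, and Sfrp2 in 6 of 12 in iPax7. Over all probes, 127, 143 and 250 passed for iPax3, iPax7 and both lines against satellite cells. These counts were 205, 236 and 379 with the deposited values, 24, 75 and 127 with a replicate block, 19, 71 and 70 with slide and 39, 58 and 72 with scan day as a random block. With only the arrays compared, they were 20 and 40, and with only probes above background on all 9 arrays, 94 for iPax7. Leaving out 1 array gave 14 to 623, 53 to 687 and 102 to 941, the highest of each without satellite replicate 1. For iPax7 against iPax3, 2 passed with quantile normalization and 1 each when probes of a gene were averaged and with slide as a random block. Member probes called against satellite cells were 0 in each comparison with only probes above background on all 9 arrays, which leaves out Dkk2, the downstream Sfrp1 probe and Sfrp2. For iPax3 the count was 1 with the replicate block, with slide as a random block and with scan day as a random block, and 1 for each line with only the arrays compared. With 1 array left out it was 1 to 2 in iPax3, 1 to 3 in iPax7 and 2 to 4 in both. Same-numbered arrays had deviations correlated between -0.143 and 0.047, and differently numbered arrays between -0.105 and 0.181. Such correlations show no strong shared shift, but cannot decide whether the replicate numbers pair the samples. Higher probes made up 85.8%, 86.7% and 82.8% of calls, and 73.0%, 76.2% and 65.4% with normexp. The median over all probes was 0.35, 0.17 and 0.28 with the percentile over probes above background on all arrays, so each difference includes that shift there. Signs turned with normexp for Dkk4 (-0.16, -0.15 and, between the lines, 0.0053) and Frzb (-0.24, -0.049 and 0.19), with that percentile for Dkk1 (0.18 upstream in iPax3, 0.064 downstream in iPax7), with the deposited values for upstream Dkk1 between the lines (0.11), and for Frzb between the lines with quantile normalization (0.15), slide as a random block (0.79) and slide as a fixed block or within the shared slide (1.76). With 1 array left out, signs also turned for upstream Dkk1 (-0.56 to 0.44 in iPax3, -0.83 to 0.17 between the lines), downstream Dkk1 in iPax7 (-0.74 to 0.18) and Frzb between the lines (-0.95 to 0.73). The cause was not tested. Slide and scan day as fixed blocks against satellite cells were not run, since no slide or day holds both groups. Probes below background limit Dkk4, Frzb, Sfrp5 and Wif1 in all groups, and Dkk2, Sfrp2 and, on satellite replicates 2 and 3, the downstream Sfrp1 probe.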

Other observations

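Some R-spondins and Frizzled receptors of the pathway list, chosen after their values were seen, had wide differences from satellite cells, although none passed the threshold. Rspo1, Rspo2 and Rspo3 encode R-spondins, secreted proteins known to enhance Wnt signalling. Rspo3 and Rspo2 were not well above background on any satellite array, so these arrays were raised to their lowest signal well above background. Rspo3 was then at least 44.8-fold higher in iPax3, where all 3 arrays were above background. In iPax7 it was 6.45-fold higher, but replicate 1 was not above background and lay within the range of the satellite arrays. Rspo2 was 6.05-fold higher in iPax3 and 2.12-fold in iPax7, with replicate 2 of each line not above background. Except for Rspo3 in iPax3, these values are therefore no bounds. The Rspo1 differences, with 1 of the 3 satellite arrays above background, were 2.80 ± 0.85 (SE) and 2.48 ± 0.85. Rspo4, the remaining R-spondin, lay in the opposite direction, at -0.94 ± 1.15 and -0.37 ± 1.15. Among the Frizzled receptors, Fzd1, Fzd2, Fzd4 and Fzd7 were the 4 with a positive difference in both lines, with 3.45 ± 0.96 in each line for Fzd2 and 3.87 ± 1.29 and 3.79 ± 1.29 for Fzd7. Only 1 of the 3 satellite arrays was above background for Fzd1, for Fzd4 and for Fzd7, so their differences rest in part on unmeasured levels. For Fzd7 both lines overlapped with the satellite arrays. Fzd3, above background on 1 array of each line, had differences of -5.90 ± 1.74 and -4.11 ± 1.74. The limma adjusted p of the genes named here lay between 0.0922 for Rspo3 in iPax3 and 0.930 for Rspo4 in iPax7.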
